A study of Homo sapiens with 4 samples.

Results

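To describe the epithelial and mesenchymal state of the cells, 10 genes were followed in HK-2 cells with and without induction of PRCC-TFE3. They were chosen by name as the keratins of simple epithelium (KRT7, KRT8, KRT18 and KRT19), the epithelial surface protein EPCAM, vimentin (VIM) and 4 transcription factors of epithelial-mesenchymal transition (EMT), namely SNAI2, ZEB1, ZEB2 and TWIST1. Earlier results of these data were known when the choice was made. All 10 were among the 34080 genes to which the deposited transcripts could be assigned, and all 10 passed the low-count filter that left 13569 genes for testing. HK-2 is an immortalised line from the proximal tubule of the human kidney. Here it carried a Tet-On construct from which doxycycline switches on PRCC-TFE3, the HA-tagged fusion protein of a renal carcinoma. Doxy(+) cultures received 0.2 microg/ml doxycycline for 24 h and Doxy(-) cultures did not, and both groups carried the construct and grew in medium with little serum. Each group had 2 libraries, and nothing in the labels says that they came from separate cultures, so the p-values measure only the spread between these libraries. A culture without the construct was not analysed here, so doxycycline and PRCC-TFE3 cannot be told apart as causes.

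Keratins are intermediate filament proteins that assemble as pairs of a type I chain (KRT18, KRT19) and a type II chain (KRT7, KRT8). Vimentin forms the intermediate filaments of mesenchymal cells and also appears in cultured and regenerating tubule cells. SNAI2, ZEB1, ZEB2 and TWIST1 bind E-box sequences and are known for repressing epithelial genes such as CDH1, the gene of E-cadherin, during EMT.

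The libraries held 14513497 and 16618401 estimated counts in Doxy(-), and 14042545 and 14664879 in Doxy(+). TFE3, whose sequence the fusion shares, had 66.9 and 69.0 CPM (counts per 1000000 after TMM scaling) without doxycycline. With it TFE3 had 367 and 322 CPM, in the direction the labels give. PRCC had 50.2 and 47.2 CPM without and 47.7 and 60.1 CPM with doxycycline. Replicates differed by more than sampling noise, since the chi-square over genes per degree of freedom was 4.03 for the Doxy(-) pair and 2.91 for the Doxy(+) pair. Of 15 proximal tubule markers, 4 had a mean of at least 1 CPM. The endocytic receptor gene LRP2 and the water channel gene AQP1 were at or under 0.0777 CPM in every library, and the transporter genes SLC22A6 and SLC22A8 were at 0 in all 4. The summed level of the 15 markers was 126 to 131 CPM in Doxy(-) and 162 to 167 CPM in Doxy(+). Most of this sum was GGT1, with means of 69.1 and 82.0 CPM, and MIOX, with means of 45.7 and 64.7 CPM. The sum thus says little about the other markers. Of the 6 tested, 3 were higher and 0 lower at an edgeR adjusted p under 0.05, against 9.76% and 9.53% of all genes. SLC34A1 lay lower without passing, on 17 and 16 counts in Doxy(-) and 3 and 7 in Doxy(+). Of 18 markers of other kidney and blood cell types, 3 had a mean of at least 1 CPM and 7 were at 0 throughout, among them CDH5, KDR and UMOD. Their sum was 149 to 153 CPM in Doxy(-) and 195 to 198 CPM in Doxy(+), most of it CD68, a lysosomal glycoprotein gene, at 147 ± 4.08 and 190 ± 1.0 CPM (SD, n = 2). Of the 4 tested, 2 were higher and 0 lower at an edgeR adjusted p under 0.05, against 9.76% and 9.53% of all genes. These were CD68 and the podocyte gene NPHS1. NPHS1 had a log2 fold change of 3.34 (edgeR adjusted p 0.0129) on 1 and 2 counts in Doxy(-) and 17 and 14.1 in Doxy(+). DESeq2 passed 1 of the 4 as higher, where it called 1076 higher of the 13636 genes it tested. The part of these shifts in the results on the 10 genes was not tested.

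Vimentin and 3 of the 4 keratins fell once PRCC-TFE3 was induced, and none of the 4 EMT factors passed the test. VIM fell by 29.8%, KRT19 by 24.6%, KRT8 by 15.4% and KRT18 by 15.2%. A gene passed at an edgeR adjusted p under 0.05. By this rule 4 of the 10 genes were lower in Doxy(+), where 9.53% of all genes tested were lower. None was higher (0 of 10), where 9.76% of all genes were. The 4 that passed were the most abundant of the 10, at places 39 to 1051 by mean CPM. The EMT factors stood at places 4307 to 10898. In size the SNAI2 log2 fold change (0.31, SE 0.101) exceeded those of KRT8 (-0.24, SE 0.0299) and KRT18 (-0.24, SE 0.0431). The shares over all genes are not matched for abundance, and shares among genes of like abundance were not counted. Because the 10 were chosen with earlier results of these data known, setting them against all genes is a description and not a test. At an unadjusted p under 0.05 edgeR had 5 of the 10 lower and 1 higher, and all genes were not counted at this cut. DESeq2 likewise called 4 lower and 0 higher, where it called 1188 lower and 1076 higher of the 13636 genes it tested. For limma on log2(TPM + 1), 2 were lower and 0 higher, where 306 were lower and 598 higher of 13311 genes. No gene of the 10 changed by more than 1 on the log2 scale, the fold change limit of the study, which 1.98% of all genes passed together with the test. At an unadjusted p under 0.05, 0 of the 10 were past it as well, and so were 0 by DESeq2 and by limma. In bulk RNA, fewer cells that express a gene and less of its RNA per cell cannot be told apart. The median log2 fold change of the 10 genes was -0.21, against 0.000616 over all genes tested.

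**Figure D1:**
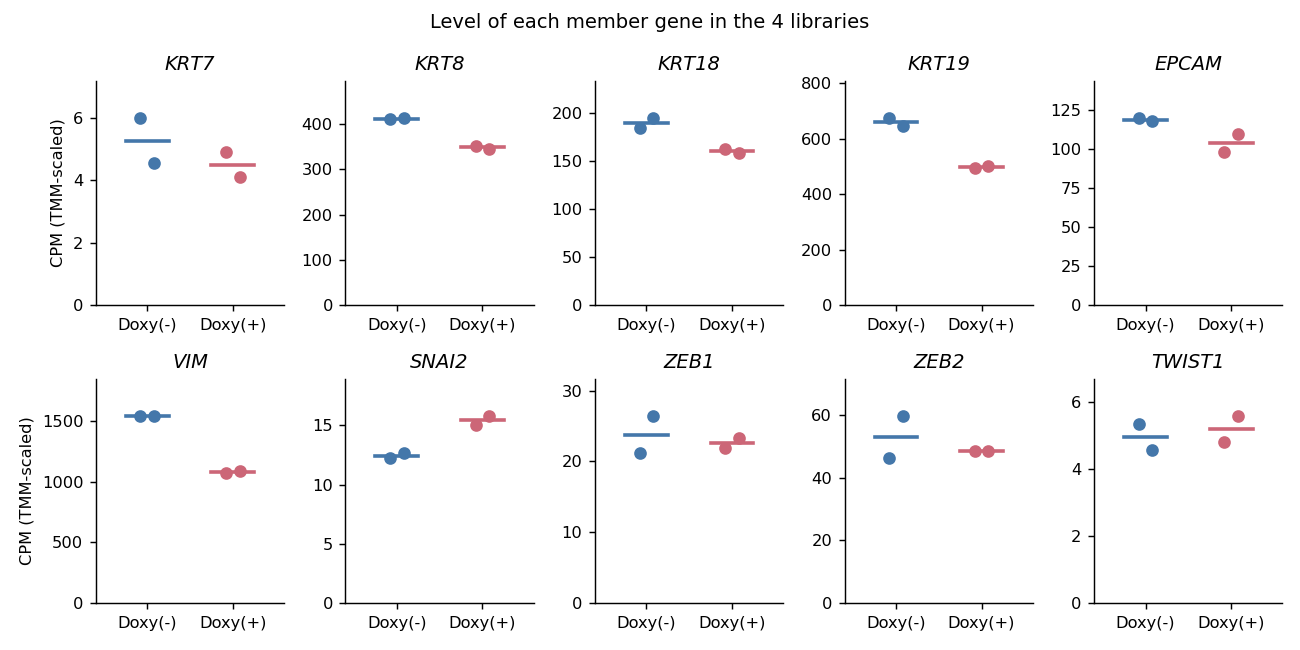
Each panel plots 1 gene, with CPM after TMM scaling on the y axis from 0 and the 2 libraries of each group as points around their mean (bar). The Doxy(+) points of VIM, KRT8, KRT18, KRT19 and EPCAM lie below both Doxy(-) points, those of SNAI2 lie above them (15.1 and 15.8 against 12.3 and 12.7 CPM), and the ranges of the other 4 genes overlap.

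The mesenchymal filament gene was examined first. VIM (ENSG00000026025.16, hg38 chromosome 10, 17228241 to 17237593, plus strand) had 1540 and 1539 CPM in the Doxy(-) libraries and 1071 and 1092 CPM in the Doxy(+) libraries. The Doxy(-) libraries were nearly equal, and both Doxy(+) libraries lay far below them. On the log2 scale Doxy(+) differed by -0.51 (SE 0.0261, edgeR adjusted p 0.000216), with a 95% interval of -0.57 to -0.45. By mean CPM it was gene 39 of the 13569 tested, and by p-value gene 61. The transcript VIM-201 carried between 97.5% and 98.3% of the VIM abundance in the 4 libraries, so nearly all of the measured VIM RNA was assigned to this transcript. Under 14 alternatives the value lay between -0.52 and -0.47, and the call was kept in each.

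The window around the start of VIM-201 is shown because TFE3 is known to bind the E-box CACGTG and SNAI2 and the ZEB factors the E-box CACCTG. It spans chr10:17229028-17229327 on the plus strand of hg38, from 250 bases before the start to 50 bases after it, and 68.0% of its bases are G or C.
VIM-201: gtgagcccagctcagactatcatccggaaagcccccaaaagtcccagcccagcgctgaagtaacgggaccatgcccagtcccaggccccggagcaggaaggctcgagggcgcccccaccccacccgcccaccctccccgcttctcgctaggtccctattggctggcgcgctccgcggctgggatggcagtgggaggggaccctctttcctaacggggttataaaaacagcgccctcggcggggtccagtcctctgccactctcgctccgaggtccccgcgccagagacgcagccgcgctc
Neither CACGTG nor CACCTG, read on both strands, occurs in these 300 bases. Over 35116 RefSeq promoter windows of the same length (GRCh38.p14), CACGTG occurred in 7.26% and CACCTG in 20.6%. The RefSeq window given for VIM starts 1037 bases away from VIM-201 and also holds neither.

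Next, the keratins of simple epithelium were compared. KRT19 (ENSG00000171345.13, chromosome 17, 41523617 to 41528308, minus strand), the smallest keratin and a marker of ducts and injured tubules, was the most abundant. It measured 673 and 647 CPM without doxycycline, against 495 and 500 CPM with it, without overlap. On the log2 scale Doxy(+) differed by -0.41 (SE 0.0322, edgeR adjusted p 0.000779, 95% interval -0.49 to -0.33). The transcript KRT19-201 held 96.1% to 98.0% of its abundance, and the call was kept under all 14 alternatives, at -0.44 to -0.36.

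KRT8 (ENSG00000170421.13, chromosome 12, 52897187 to 52949954, minus strand) and KRT18 (ENSG00000111057.11, chromosome 12, 52948871 to 52952906, plus strand) encode the obligate pair of simple epithelium and lie side by side. KRT8 had 411 and 412 CPM in the Doxy(-) libraries and 352 and 345 CPM in the Doxy(+) libraries. KRT18 measured 184 and 194 CPM without doxycycline, against 163 and 158 CPM with it. For both genes each Doxy(+) library lay below each Doxy(-) library. The log2 fold changes were -0.24 for KRT8 (SE 0.0299, edgeR adjusted p 0.00376) and -0.24 for KRT18 (SE 0.0431, edgeR adjusted p 0.0142).

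The KRT18 call was the weaker one. It ended without Doxy(+) 1 (edgeR adjusted p 0.0679), without Doxy(+) 2 (edgeR adjusted p 0.0993), with length-scaled counts (edgeR adjusted p 0.0617) and under limma on log2(TPM + 1), where the adjusted p was 0.1. The last setting also ended the KRT8 call, with a limma adjusted p of 0.0645. Over all alternatives the adjusted p ranged from 0.000415 to 0.105 for KRT18 and from 4.7e-08 to 0.0663 for KRT8. Direction held in each, with values of -0.28 to -0.19 for KRT18 and of -0.26 to -0.19 for KRT8.

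Both genes have many processed copies in the genome, to which a quantifier can lose reads. The files list 51 pseudogenes named after KRT8 and 67 named after KRT18. Their summed estimated counts were 1.69% to 2.68% of the KRT8 count and 1.0% to 1.16% of the KRT18 count. With these counts added back, both genes passed the test and the number of the 10 genes lower in Doxy(+) was again 4. Exons of KRT8 and KRT18 also overlap on opposite strands, and whether the counting used the strand is not stated. The 3 KRT8 transcripts that reach the KRT18 locus held 1.86% to 3.81% of the KRT8 count.

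The start of KRT8-201 is shown because this transcript carried 86.6% to 95.4% of the KRT8 abundance. Neither KRT8-201 nor VIM-201 is annotated as the canonical transcript of its gene, and whether the RNA starts at these positions was not tested. The window is chr12:52906569-52906868 on the minus strand of hg38, again from 250 bases before the start to 50 bases after it. Capitals mark CACCTG on either strand, as described for the VIM window.
KRT8-201: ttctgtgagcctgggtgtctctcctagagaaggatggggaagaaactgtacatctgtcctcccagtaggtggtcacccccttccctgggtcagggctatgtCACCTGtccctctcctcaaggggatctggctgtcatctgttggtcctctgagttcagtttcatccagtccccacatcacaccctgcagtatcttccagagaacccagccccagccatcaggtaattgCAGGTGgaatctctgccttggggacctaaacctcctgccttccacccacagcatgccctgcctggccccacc
The motif occurs 2 times, both before the start, in contrast to the VIM window, and CACGTG does not occur. A match is a description of the letters and not a bound site. The RefSeq window for KRT8 lies at another start, 19851 bases away, and holds neither motif. Among the other genes RefSeq windows were given for ZEB1 and ZEB2, and 2 of the 7 ZEB1 windows held CACCTG.

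KRT7 (ENSG00000135480.17, chromosome 12, 52232520 to 52252186, plus strand), the type II keratin of ducts and many carcinomas, was scarce. It had 5.97 and 4.56 CPM in the Doxy(-) libraries and 4.89 and 4.10 CPM in the Doxy(+) libraries, and the ranges overlapped. The log2 difference of -0.23 (SE 0.226, edgeR adjusted p 0.543) had a 95% interval of -0.78 to 0.33, which includes falls larger than that of VIM. It was -0.0253 without Doxy(-) 1, -0.41 without Doxy(-) 2, -0.36 without Doxy(+) 1 and -0.10 without Doxy(+) 2, and it passed in none of these. The canonical coding transcript KRT7-201 held 1.98, 0, 10.3 and 0 estimated counts in Doxy(-) 1, Doxy(-) 2, Doxy(+) 1 and Doxy(+) 2. KRT7-212, annotated without a coding sequence, held the most in each library, with 51.2 and 42.8 counts without doxycycline and 35.2 and 23.8 counts with it. Exons of the pseudogene KRT87P overlap KRT7 on the other strand.

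EPCAM (ENSG00000119888.11, chromosome 2, 47345158 to 47387601, plus strand), an adhesion molecule of epithelial cells, measured 120 and 118 CPM without doxycycline, against 98.0 and 110 CPM with it. The groups did not overlap, but the Doxy(+) libraries lay further from each other than the nearer of them lay from Doxy(-). The log2 difference of -0.20 (SE 0.0614, 95% interval -0.34 to -0.05) did not pass, with an edgeR adjusted p of 0.0784. Without a low-count filter it passed at an edgeR adjusted p of 0.0469, where its alternatives ran from 0.0469 to 0.351. The value itself was -0.12 without Doxy(+) 1 (edgeR adjusted p 0.351) and -0.28 without Doxy(+) 2 (edgeR adjusted p 0.056). Between 48.5% and 52.4% of the EPCAM abundance lay on EPCAM-206, which is annotated as a retained intron, in all 4 libraries.

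**Figure D2:**
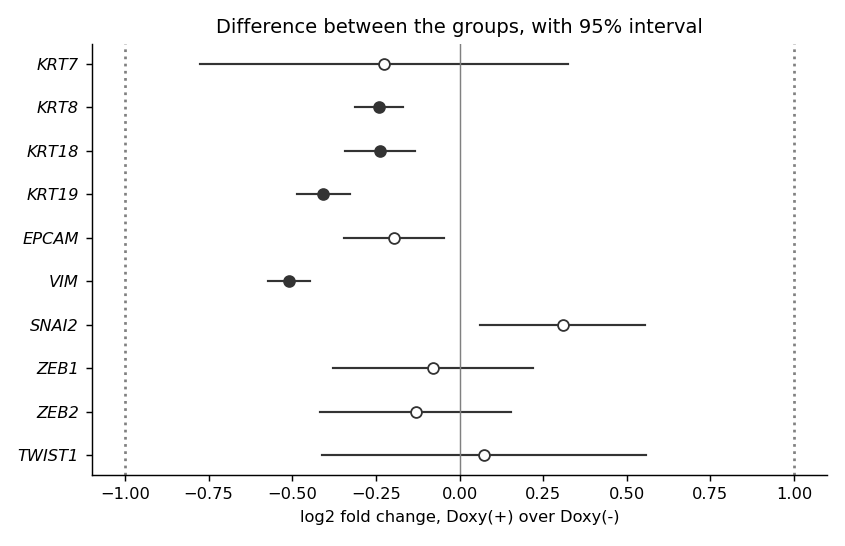
Points give the log2 fold change of Doxy(+) over Doxy(-) from edgeR and lines its 95% interval, filled where the adjusted p was under 0.05, with dotted lines at 1 and -1. VIM (-0.51), KRT19 (-0.41), KRT8 (-0.24) and KRT18 (-0.24) are filled, and no interval reaches a dotted line.

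The EMT factors were then examined. SNAI2 (ENSG00000019549.13, chromosome 8, 48917598 to 48921740, minus strand), also called Slug, had 12.3 and 12.7 CPM in the Doxy(-) libraries and 15.1 and 15.8 CPM in the Doxy(+) libraries. Both Doxy(+) libraries were the higher ones. The log2 difference of 0.31 (SE 0.101, 95% interval 0.06 to 0.55) did not pass over all genes, with an edgeR adjusted p of 0.0874. It rests on 158 and 186 estimated counts without and 194 and 212 with doxycycline, and stayed between 0.27 and 0.35 under the alternatives without passing in any.

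ZEB1 (ENSG00000148516.23, chromosome 10, 31318495 to 31529814, plus strand) measured 21.2 and 26.4 CPM without doxycycline, against 21.8 and 23.3 CPM with it. The Doxy(+) range lay inside that of Doxy(-), and the log2 difference was -0.08 (SE 0.123, edgeR adjusted p 0.704, 95% interval -0.38 to 0.22). ZEB2 (ENSG00000169554.23, chromosome 2, 144364364 to 144521057, minus strand) had 46.5 and 59.7 CPM in the Doxy(-) libraries and 48.7 and 48.5 CPM in the Doxy(+) libraries. Again the Doxy(+) libraries lay between the Doxy(-) libraries. On the log2 scale Doxy(+) differed by -0.13 (SE 0.117, edgeR adjusted p 0.49, 95% interval -0.42 to 0.15). A single library decided its direction, since it was -0.30 without Doxy(-) 1 (edgeR adjusted p 0.0215) and 0.0634 without Doxy(-) 2 (edgeR adjusted p 0.612), where its alternatives ran from 0.0215 to 0.861. ZEB1 was likewise at -0.23 without Doxy(-) 1 and turned to 0.0909 without Doxy(-) 2.

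TWIST1 (ENSG00000122691.13, chromosome 7, 19020991 to 19117636, minus strand) was the least abundant of the 10 per length. It measured 5.35 and 4.56 CPM without doxycycline, against 4.82 and 5.59 CPM with it, with overlapping ranges. The log2 difference of 0.07 (SE 0.199, edgeR adjusted p 0.838) had a 95% interval of -0.41 to 0.56, and it turned negative without Doxy(-) 2 (-0.0418) and without Doxy(+) 2. On 62.0 to 75.0 counts per library, the interval left out a fall as large as that of VIM but not a rise of that size.

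Counting groups that did not overlap, 5 of the 10 genes lay lower and 1 lay higher in both Doxy(+) libraries. Over all genes tested the shares were 30.0% lower and 31.1% higher, so with 2 libraries in a group this measure separates little.

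**Figure D3:**
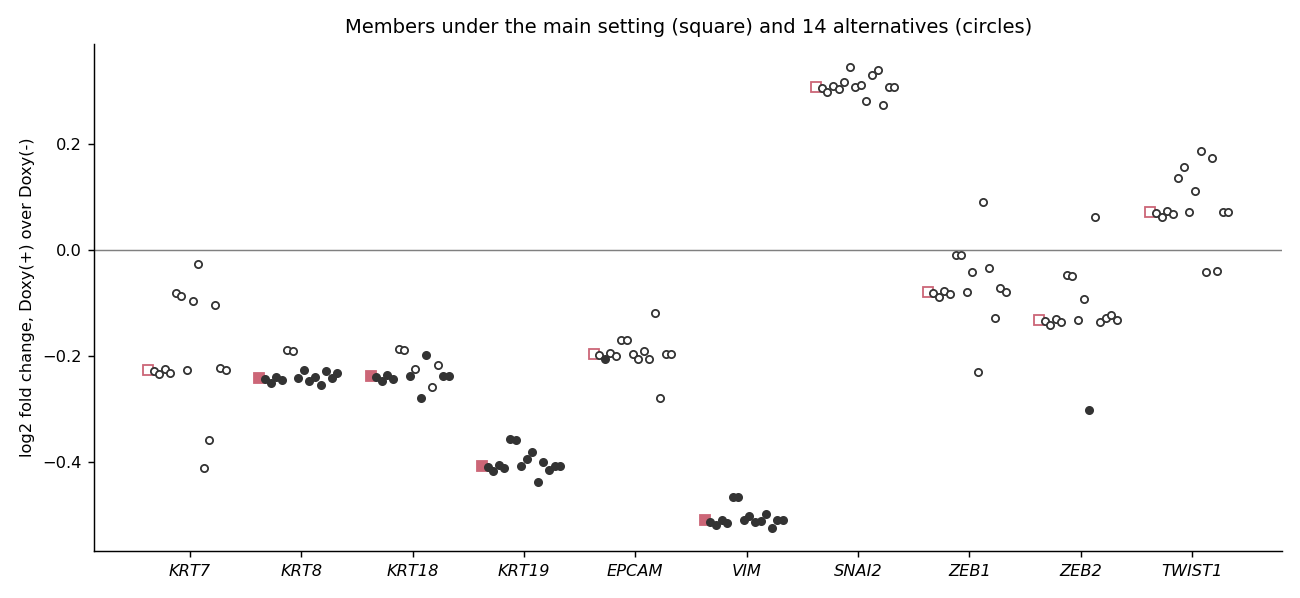
The y axis is the log2 fold change of Doxy(+) over Doxy(-), with the main setting as a square and each alternative as a circle, filled at an adjusted p under 0.05. VIM and KRT19 are filled throughout, KRT8 and KRT18 lose some calls, and ZEB1, ZEB2 and TWIST1 have points on both sides of 0.

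To compare genes with one another, levels per transcript length were taken as TPM (transcripts per 1000000). In Doxy(-) the order was VIM (1247 ± 2.33 TPM), KRT19 (742 ± 23.4), KRT8 (354 ± 0.706), KRT18 (203 ± 6.38), EPCAM (154 ± 0.802), ZEB2 (19.5 ± 2.63), KRT7 (13.3 ± 1.25), ZEB1 (9.96 ± 0.786), SNAI2 (8.95 ± 0.162) and TWIST1 (5.88 ± 0.542; SD, n = 2). No neighbours in this order had overlapping values. The place of KRT7 rests mostly on transcripts annotated without a coding sequence or as a retained intron. By mean CPM in Doxy(-) it stood at 5.27, below ZEB1 (23.8) and SNAI2 (12.5). The retained intron EPCAM-206 likewise held 48.5% to 52.4% of the EPCAM abundance. In Doxy(+) the first 7 places were the same, with VIM at 903 ± 8.10 TPM and KRT19 at 579 ± 1.56 TPM. There SNAI2 (11.4 ± 0.396 TPM) came before ZEB1 (9.91 ± 1.22 TPM), and KRT7 and SNAI2 could not be ordered, since their values overlapped. VIM, KRT19, KRT8, KRT18 and EPCAM thus stood well above all 4 EMT factors in both groups. The 4 EMT factors together came to 42.1 and 46.4 TPM in Doxy(-) and to 45.8 and 47.4 TPM in Doxy(+), with overlapping ranges.

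The proportions among the filament genes were compared last. KRT8 to KRT18 in TPM gave ratios of 1.78 and 1.70 without doxycycline against 1.73 and 1.74 with it. The pair thus kept overlapping proportions while both genes fell. KRT19 to KRT8 gave 2.14 and 2.05 in Doxy(-) and lower values, 1.85 and 1.88, in Doxy(+). The 4 keratins summed to 1326 and 1299 TPM in Doxy(-) and to 1084 and 1076 TPM in Doxy(+). Within that sum KRT19 held 57.2% and 55.8% in Doxy(-) against 53.5% and 53.7% in Doxy(+). VIM to KRT8 gave 3.52 and 3.53 in Doxy(-) and 2.87 and 2.96 in Doxy(+). The ratio of VIM to the keratin sum moved the same way, from 0.942 and 0.959 to 0.827 and 0.845. For 2 libraries against 2, a two-sided exact permutation test cannot go below p = 0.333, the value it gave for each ratio without overlap. That floor is set by the design, so these p-values say nothing about the ratios, and no other test of the difference between genes was run. The 95% interval of the VIM log2 difference (-0.57 to -0.45) and that of KRT19 (-0.49 to -0.33) overlap each other, and neither overlaps that of KRT8 (-0.31 to -0.17). The interval of KRT18 (-0.34 to -0.13) overlaps that of KRT19 but not that of VIM. All of them come from the same 4 libraries, and their overlap is not a test between genes.

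**Figure D4:**
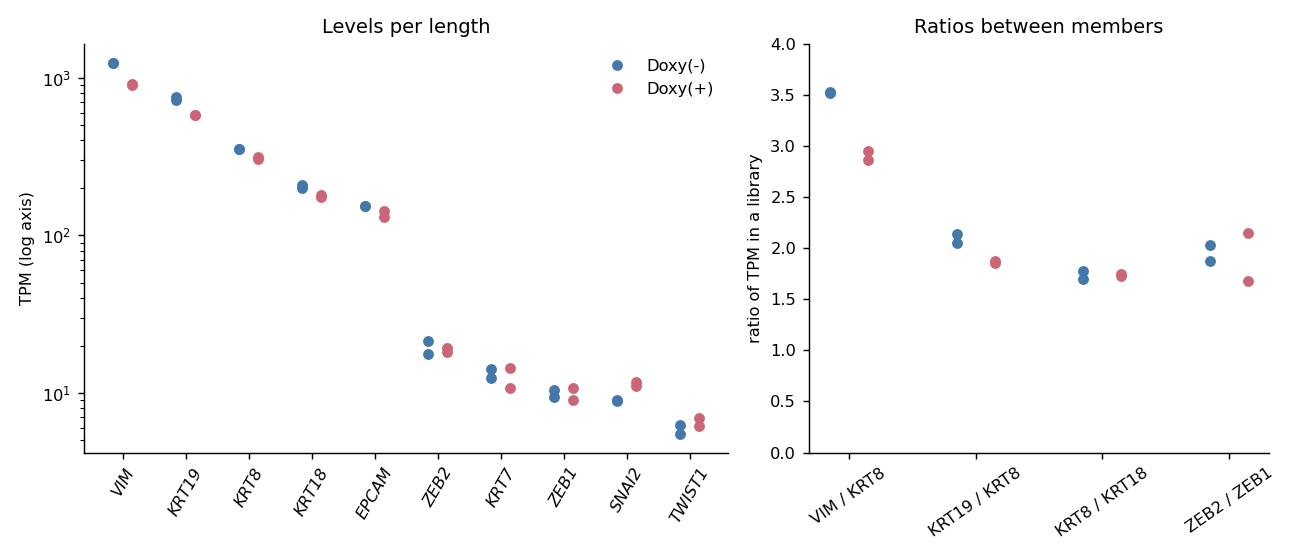
Left, TPM of each gene on a log axis, and right, ratios of TPM between genes in the same library, with 1 point per library. The ratio of VIM to KRT8 is 3.52 and 3.53 in Doxy(-) and 2.87 and 2.96 in Doxy(+), while KRT8 to KRT18 overlaps between the groups.

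Next, 6 lists of related genes were counted in the same fit, in which 9.76% of all genes tested were higher and 9.53% lower. Of 30 other keratins only 5 passed the low-count filter, and 15 had no count in any library, among them the basal keratins KRT5 and KRT14. KRT80, a keratin of epithelial differentiation, fell from 295 ± 4.78 to 247 ± 5.80 CPM and passed (-0.26 on the log2 scale, edgeR adjusted p 0.0054). It was the only one of the 5 to pass, and its edgeR adjusted p was 0.0531 without Doxy(+) 2, where its alternatives ran from 8.12e-07 to 0.102. None of the 5 passed as higher (0 by edgeR, DESeq2 and limma, 1 at an unadjusted p under 0.05). KRT10, the type I keratin of epidermis, had a log2 fold change of 0.30 (edgeR adjusted p 0.0627) and KRT79 of -1.34 (edgeR adjusted p 0.0852), the latter on 7.0 to 33.0 counts and between -1.88 and -0.66 over its alternatives. Without Doxy(-) 1, 2 other keratins passed, and without Doxy(+) 2, 0 did. The median log2 fold change of the 5 was -0.26.

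Of 33 genes of epithelial adhesion and junctions, 26 were tested, of which 7 rose, 4 fell and 15 did not pass, where 9.76% of all genes tested were higher and 9.53% lower. The median log2 fold change was 0.03. CDH1 was not among those tested. It had 10.5 and 9.40 estimated counts without and 8.19 and 6.14 with doxycycline, too few counts to show a difference. The tight junction claudin CLDN1 fell from 965 ± 36.5 to 726 ± 4.08 CPM (log2 fold change -0.41, edgeR adjusted p 0.000914), close to the change of KRT19. CLDN2, a pore-forming claudin of the proximal tubule, fell from 9.14 ± 0.0252 to 1.71 ± 0.326 CPM (log2 fold change -2.41, edgeR adjusted p 0.00107), and this value was -1.58 under limma on log2(TPM + 1). JUP, which encodes plakoglobin of desmosomes, the junctions that anchor keratin filaments, fell by 0.43 on the log2 scale (edgeR adjusted p 0.00451). The 3 that rose past the fold change limit were chosen after their values were seen. They were MARVELD2, which encodes tricellulin (2.91), MARVELD3 (1.31) and the membrane protease gene ST14 (1.32). They reached means of only 3.36, 2.81 and 2.73 CPM in Doxy(+), and the MARVELD3 and ST14 calls ended when any 1 of the 4 libraries was left out. The MARVELD2 call ended without Doxy(+) 2, at 2.38 with an edgeR adjusted p of 0.0962, and with length-scaled counts (edgeR adjusted p 0.0543). It also ended under limma, at 1.12 on log2(TPM + 1) and 2.24 on log2(TPM + 0.1), and its values ran from 1.12 to 3.98 over all alternatives. MARVELD3 was at 0.69 under limma on log2(TPM + 1). Over all genes DESeq2 called 1076 higher and 1188 lower of the 13636 it tested. DESeq2 passed 7 genes of the list, 2 higher and 5 lower, and between 5 and 9 passed when a library was left out, the fewest without Doxy(+) 1 and without Doxy(+) 2.

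Regulators that maintain epithelial transcription and splicing gave little. Of 24 genes listed, 22 were in the tables used here and 11 were tested. Of these, 1 was higher and 0 lower, where 9.76% of all genes tested were higher and 9.53% lower. GRHL1, a grainyhead factor, rose from 7.05 ± 0.0326 to 10.5 ± 0.713 CPM (log2 fold change 0.58, edgeR adjusted p 0.0333). That call ended when any 1 library was left out and under DESeq2, with adjusted p-values up to 0.436 over its alternatives, and the value was 0.35 under limma on log2(TPM + 1). None of the 11 fell (0 by edgeR, DESeq2 and limma, 2 at an unadjusted p under 0.05). These 2 were FOXA1, a pioneer factor, at -0.30 (edgeR adjusted p 0.0805) and ESRP2, a splicing regulator of epithelial isoforms, at -0.18 (edgeR adjusted p 0.123). The median of the list was 0.06.

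The mesenchymal and contractile genes that passed were all lower in Doxy(+). Of 29 listed, 17 were tested, 7 fell and 10 did not pass, where 9.53% of all genes tested were lower. The median log2 fold change was -0.10. None rose (0 by edgeR, DESeq2 and limma, 2 at an unadjusted p under 0.05). These 2 were LUM (log2 fold change 0.14, edgeR adjusted p 0.103) and CALD1 (0.12, edgeR adjusted p 0.119). TPM1, a tropomyosin, fell from 1105 ± 2.98 to 842 ± 2.90 CPM (log2 fold change -0.39, edgeR adjusted p 0.000424). FN1, the fibronectin gene, changed by -0.33 (edgeR adjusted p 0.00031), the hyaluronan receptor gene CD44 by -0.55 (edgeR adjusted p 0.000726) and CDH2, the gene of N-cadherin, by -0.45 (edgeR adjusted p 0.00111). Like VIM, these genes were expressed at high levels in both groups, with CDH2 at 211 ± 2.49 CPM in Doxy(-) against 0.728 ± 0.125 CPM for CDH1. Other abundant genes of the list did not fall past the test. In Doxy(-) and Doxy(+), LUM had means of 167 and 185 CPM and CALD1 of 306 and 334 CPM. MYL9 (316 and 318 CPM) and FBN1 (180 and 175 CPM) had overlapping ranges. The fibroblast collagen gene COL3A1 was at 0 in every library.

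Of 30 other EMT factors and their partners, 28 were in the tables used here and 19 were tested. Of these, 5 fell and 1 rose, where 9.53% of all genes tested were lower and 9.76% higher. The median log2 fold change was -0.12. SNAI1, the Snail gene, did not pass, with a log2 fold change of -0.12 on 116 to 161 counts per library (95% interval -0.47 to 0.22, edgeR adjusted p 0.595). It was -0.24 without Doxy(-) 1 and -0.000826 without Doxy(-) 2. HMGA2, a chromatin protein, fell from 223 ± 3.42 to 158 ± 5.16 CPM (log2 fold change -0.50, edgeR adjusted p 0.00079). ETS1 changed by -0.36 (edgeR adjusted p 0.00559) and the AP-1 subunit gene FOSL1 by -0.41 (edgeR adjusted p 0.0115). The FOSL1 value without Doxy(+) 1 had an edgeR adjusted p of 0.073, where its alternatives ran from 0.000214 to 0.073. Of the 19, 3 passed without Doxy(-) 2 and 2 without Doxy(+) 1.

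The remaining list held other intermediate filaments and the linkers that tie filaments to the cell. Of 22 listed, 21 were in the tables used here and 16 were tested. Of these, 6 fell and 1 rose, where 9.53% of all genes tested were lower and 9.76% higher. The median log2 fold change was -0.19. PLEC, the gene of plectin, a linker that binds both keratin and vimentin filaments, fell from 359 ± 13.7 to 250 ± 0.938 CPM (log2 fold change -0.53, edgeR adjusted p 0.000592). Nestin (NES), which co-assembles with vimentin, fell by 32.7% (log2 fold change -0.57, edgeR adjusted p 0.000947). The filament gene INA, encoding alpha-internexin, changed by -0.36 (edgeR adjusted p 0.00313). The falls of PLEC and NES had point estimates close to that of VIM.

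**Figure D5:**
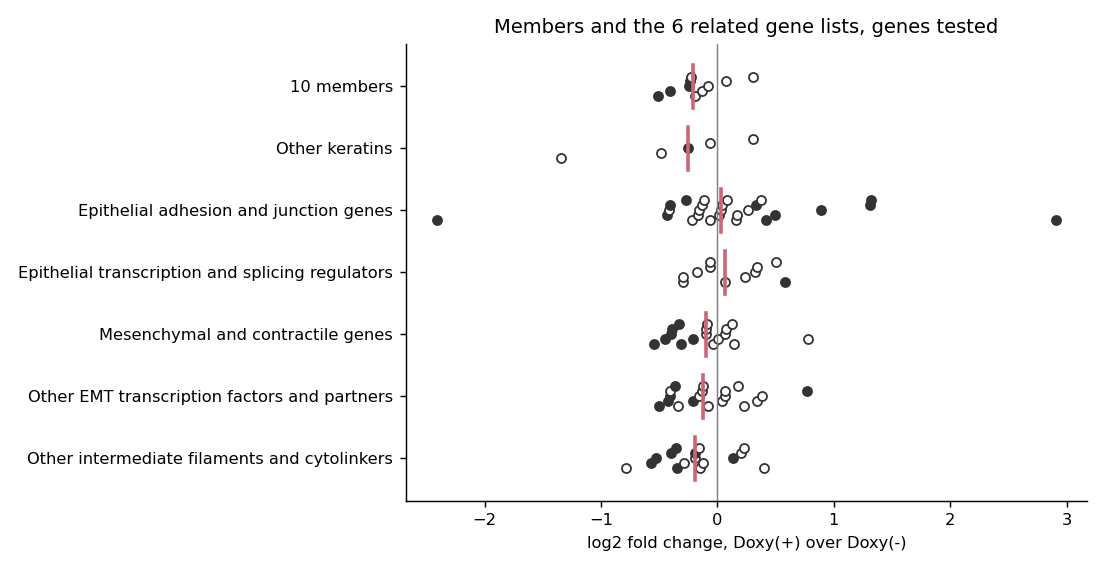
The x axis is the log2 fold change of Doxy(+) over Doxy(-), with 1 point per gene tested, filled at an edgeR adjusted p under 0.05, and a bar at the median of each list. Filled points lie only left of 0 among the 10 members, the other keratins and the mesenchymal genes, and on both sides among the junction genes, from CLDN2 at -2.41 to MARVELD2 at 2.91.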

How the data were processed

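Polyadenylated RNA of 4 libraries was analysed. The study's methods give single-end sequencing, Trim Galore 0.6.6 with cutadapt 2.5, STAR 2.7.9a on hg38, RSEM and DESeq2. The deposited files show the layout of another quantifier, and its version, annotation release and strand setting are not given in the sources used here. Per the file headers they hold estimated counts per Ensembl transcript, which are not normalized, and TPM values, which the authors' quantifier scaled to 1000000 per library. The deposited effective lengths were the same in all libraries.

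Of 180253 transcript identifiers, 150691 (83.6%) matched GENCODE release 44 and were summed into 34080 genes. The unmatched identifiers, 9.66% to 9.89% of counts, were left out. Sums were rounded and tested with edgeR 4.0.16 (R 4.3.3), using glmQLFit and glmQLFTest after TMM scaling and filterByExpr, with the group as the only term, and p-values were adjusted over all genes by the Benjamini-Hochberg method. Alternatives used DESeq2 1.42.0, limma 3.58.1, other filters and sums, a replicate block and each library left out. The procedure was also tested on simulated data in which the changed genes moved by 1 on the log2 scale, more than any of the 10 members did. That run does not bear on whether smaller changes would be found.

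The members and gene lists were chosen with earlier results of these data known. Named are the 10 members, TFE3, PRCC, CDH1, CDH2, FN1, SNAI1 and the 3 genes with the smallest p in each of 6 related lists. The other genes named, among them cell type markers, list members without counts and the junction genes past the fold change limit, were chosen after their values were seen.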

Additional observations from a re-analysis of the deposited data

How the results depend on the processing

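Values are counts of genes past the test, higher or lower in Doxy(+). For the 10 members the count lower was 4 and became 2 under limma on log2(TPM + 1) and 2 on log2(TPM + 0.1), where KRT8 and KRT18 lost their calls. It was 3 to 5 when a library was left out, and the count higher was 0 in every setting. Over all genes, 1325 were higher and 1293 lower. These became 598 and 306 under limma on log2(TPM + 1), 590 and 299 on log2(TPM + 0.1), 677 and 583 with length-scaled counts, and 621 and 554 at an adjusted p under 0.01. With a library left out they were 647 to 1233 higher and 565 to 1308 lower, lowest without Doxy(+) 1 (647 and 565) and without Doxy(+) 2 (686 and 642).

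The limma settings gave, for log2(TPM + 1) and log2(TPM + 0.1), 0 and 0 other keratins against 1, 2 and 2 junction genes against 11, 0 and 0 epithelial regulators against 1, 1 and 1 other EMT factors against 6, and 4 and 4 other filament genes against 7. Mesenchymal genes were 4 on log2(TPM + 1) against 7. DESeq2 gave 7 junction genes and 0 epithelial regulators. Length-scaled counts gave 3 and 0, and an adjusted p under 0.01 gave 5 and 0, with 2 other EMT factors. Leaving out a library gave 0 to 2 other keratins, 5 to 9 junction genes, 0 to 0 epithelial regulators, 5 to 9 mesenchymal genes, 2 to 5 other EMT factors and 5 to 9 other filament genes. KRT80, JUP, CD44, ETS1, FOSL1, INA, GRHL1, MARVELD2 and MARVELD3 lost their calls under both limma settings, and ST14 was not tested in them. Fits without a library have fewer samples and the limma settings use another unit, and the cause was otherwise not tested.

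The sign turned, with no call on the turned side, for PRCC (0.15) at -0.15 under both limma settings and -0.19 with length-scaled counts. With a library left out it also turned for PRCC (-0.0293 to 0.30, negative without Doxy(+) 2), TWIST1 (-0.0418 to 0.19, negative without Doxy(-) 2 or Doxy(+) 2), ZEB1 (-0.23 to 0.0909, positive without Doxy(-) 2) and ZEB2 (-0.30 to 0.0634, positive without Doxy(-) 2). The addition of pseudogene counts was chosen after the data were seen and left 4 members lower.

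The replicate number is shared by the groups, but the labels do not say what it marks, and the deviations of same-numbered libraries had a correlation of -0.0147 over genes. With the number as a replicate block 4 members were lower and 0 higher, and over all genes 1282 were higher and 1261 lower. The block ended the call of MARVELD3 (edgeR adjusted p 0.0539) and of no other gene named in the 6 related lists. Counting all genes of a list, 8 junction genes passed with the block against 11, and 8 other EMT factors against 6. Depth limits KRT7, TWIST1, CDH1 and the scarce junction genes, where a count of 0 allows up to 3 counts, or 0.217 CPM in Doxy(-) and 0.228 CPM in Doxy(+), for counting error only.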

Other observations

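Single transcripts of several members differed widely between libraries of 1 group, and those of ZEB1, EPCAM and KRT8 are given as examples. Others were ZEB2-223, with 90.2 and 0 counts in Doxy(-), and VIM-206, with 0 and 73.9 in Doxy(+). ZEB1-217 held 43.1% and 16.9% of the ZEB1 abundance in Doxy(-) and close to none in Doxy(+). A second coding ZEB1 transcript held 0.0803 and 128 counts in Doxy(-), and 116 and 150 in Doxy(+). The ZEB1 sum was 273 to 388 counts. EPCAM-202 ranged from 0 to 297 counts, and both extremes were Doxy(+) libraries. KRT8-215 held 322 and 14.8 counts in Doxy(-) and 1.93 and 358 in Doxy(+). These values were not tested, and no group difference is read from them.

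Of 6 proximal tubule markers tested, 0 fell at an edgeR adjusted p under 0.05 and 1 was lower at an unadjusted p under 0.05. This was SLC34A1, with a log2 fold change of -1.64 (edgeR adjusted p 0.0779) on 17 and 16 counts in Doxy(-) and 3 and 7 in Doxy(+). By edgeR 3 of the 6 rose, where 9.76% of all genes tested were higher and 9.53% lower. DESeq2, which called 1076 higher and 1188 lower of the 13636 genes it tested, likewise had 3 of the markers higher and 0 lower. These 3, chosen after their values were seen, were MIOX, the gene of myo-inositol oxygenase (45.7 ± 3.91 to 64.7 ± 0.16 CPM, edgeR adjusted p 0.00581), GATM, a creatine synthesis gene (8.17 ± 0.577 to 12.7 ± 1.11 CPM, edgeR adjusted p 0.0234), and GGT1, a brush border enzyme gene (69.1 ± 0.477 to 82.0 ± 5.66 CPM, edgeR adjusted p 0.041; SD, n = 2).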
